A study of Mus musculus with 12 samples.

Results

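Solute carriers are membrane proteins that move amino acids, sugars, ions, metals, nucleosides, vitamins and metabolites across the plasma membrane, the lysosomal membrane or the inner mitochondrial membrane. Their genes are named by family, and the number of a family mostly follows its substrate. The genes described here are all those listed in the expression table whose mouse symbol starts with Slc, a family number, the letter a and a member number, with Slc7a5, Slc3a2 and Slc66a2 left out. They come to 139 of the 9842 genes listed. The reference gene table holds 355 genes that match the naming pattern, of which 142 were listed.

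RNA was sequenced from B cells of female C57BL/6J mice in 12 libraries of 2000 sorted cells each, 3 per group. The groups are eMZB_KO and eMZB_WT, marginal zone B cells derived ex vivo without and with LSD1, and TrB_KO and TrB_WT, splenic transitional B cells without and with LSD1. LSD1 is a histone demethylase encoded by Kdm1a, and the labels give neither the allele nor the driver by which it was lost. eMZB cells were grown from transitional B cells over 3 days of culture with DL1, which activates Notch, and BAFF, which keeps B cells alive, and were then sorted as B220+ CD21+ CD1d+. TrB cells were sorted without stimulation as B220+ CD93+, and both sorts left out cells with Thy1.1, F4/80 or CD11b. Whether replicates are separate animals is not stated, so p-values measure the spread between the libraries at hand, possibly a technical one. In bulk RNA, fewer cells that use a gene and less RNA per cell cannot be told apart. The eMZB and TrB groups also differ in culture, stimulation and sort at once, and these cannot be told apart either.

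A lymphocyte that enters culture with growth signals takes up more amino acids, glucose and phosphate, and it exchanges lactate, nucleotides and cofactors between cytosol and mitochondria through dedicated carriers. In B cells the neutral amino acid exchangers, the glucose carriers and the zinc carriers have been studied most. Several carriers of the lysosomal membrane also report amino acid supply to the kinase complex mTORC1. LSD1 removes methyl groups from histone H3 at enhancers and promoters.

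Values are FPKM, fragments per kilobase of gene relative to the reads of the library, deposited by the authors and divided here by a scale factor per library (scaled FPKM), which makes levels comparable between genes and libraries. A log2 difference is the difference of group means of log2(scaled FPKM + 1) from a limma fit of all 12 libraries, given with its SE, and it understates the change of low genes. A gene is called where its p, adjusted over all 9842 genes by the Benjamini-Hochberg method, is under 0.05. Where the cell types are compared, a difference in the knockout is eMZB_KO minus TrB_KO, and in wild type eMZB_WT minus TrB_WT. Higher or lower in the knockout or in wild type is meant in that sense, not as knockout against wild type. Per-library values are listed in the order of replicates 1 to 3, and means carry the SD of n = 3 libraries.

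The libraries hold 7.24 to 19.35 M reads, of which 1.96 to 8.78 M lie in listed genes, and a member was covered by a mean of 23.2 to 3342 reads per library. The share of reads in listed genes was 27.8% to 41.7% in eMZB libraries, 16.7% to 20.9% in 5 TrB libraries and 61.6% in TrB_KO replicate 3, where 285 listed genes are at 0. Kdm1a stood at 2.65, 2.53 and 2.66 scaled FPKM in eMZB_KO, against 7.53, 8.63 and 4.68 in eMZB_WT, and at 3.35, 2.56 and 2.99 in TrB_KO, against 8.54, 7.93 and 3.47 in TrB_WT. The libraries labelled eMZB_WT replicate 3 and TrB_WT replicate 3 are thus low among the wild type. Wild-type counts between the cell types are given below without them. Counts for LSD1 loss without both are not reported here. All 7 B cell markers were listed. Their sum was 1086 to 1128 scaled FPKM in eMZB_KO, 1171 to 1301 in eMZB_WT, 1801 to 2092 in TrB_KO and 2043 to 2369 in TrB_WT, and 6 of the 7 were called lower in eMZB in both genotypes, with median log2 differences of -0.72 in the knockout and -0.66 in wild type. Cr2, which encodes CD21, averaged 64.4 ± 1.32 and 65.5 ± 4.897 in eMZB_KO and eMZB_WT, and 13.3 ± 1.79 and 8.77 ± 1.14 in TrB_KO and TrB_WT. Cd93 averaged 0.831 ± 0.158 and 0.873 ± 0.203, against 5.22 ± 0.782 and 5.002 ± 0.7801. All 6 marginal zone B cell markers were listed, with 6 called higher in eMZB in the knockout and 5 in wild type. Cd1d1, which encodes CD1d, was higher in eMZB_KO than in TrB_KO by 0.28 (adjusted p = 0.0431), with 0.04 (adjusted p = 0.796) between eMZB_WT and TrB_WT. Of 15 macrophage and monocyte markers 5 were listed, and their sum was 53.6 to 60.1 scaled FPKM in eMZB_KO, 16.1 to 24.5 in eMZB_WT, 51.4 to 66.7 in TrB_KO and 12.6 to 14.9 in TrB_WT, most of it Ly6c2. Without Ly6c2 the sum of the other 4 was 5.86 to 8.45 in eMZB_KO, 3.93 to 6.42 in eMZB_WT, 4.65 to 6.62 in TrB_KO and 5.74 to 6.74 in TrB_WT, and these ranges overlap between the genotypes. Csf1r, Cd14, Lyz2 and C1qa to C1qc were among the 10 not listed. All 5 plasma cell markers were listed, with sums of 34.5 to 41.8 in eMZB_KO, 49.1 to 58.3 in eMZB_WT, 47.7 to 97.6 in TrB_KO and 31.8 to 53.6 in TrB_WT. Of these, Jchain (3.395 ± 2.42 in eMZB_KO, 39.7 ± 20.7 in TrB_KO) and Sdc1 were called lower in eMZB_KO than in TrB_KO. Prdm1 and Xbp1 were called higher in eMZB_WT than in TrB_WT. Of 5 dendritic cell markers 1 was listed, Flt3, with 5.15 ± 0.586 in eMZB_KO, 0.824 ± 0.207 in eMZB_WT, 0.433 ± 0.0339 in TrB_KO and 0.777 ± 0.0764 in TrB_WT. It was called higher with LSD1 loss in eMZB and in eMZB_KO against TrB_KO. No marker of neutrophils, NK cells or platelets was listed, and 1 of 9 erythroid, 1 of 8 T cell and 1 of 7 stromal markers was. The part of these markers in the carrier differences below was not tested.

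By family number the 139 genes fall into 34 mitochondrial carriers, 26 carriers of amino acids and peptides, 20 of metals and heme, 19 of inorganic ions and pH, 11 of hexoses and other sugars, 10 of nucleosides, nucleotide sugars and acetyl-CoA, 10 of vitamins, choline, lipids and urea, and 9 of monocarboxylates, organic anions and cations and bile acids. The pattern also takes 4 genes that are carriers by name only. They are Slc9a3r1, which encodes the scaffold protein NHERF1, Slc4a1ap, Slc7a6os and Slc2a4rg-ps. All listed genes reach 1 FPKM in at least 3 libraries. Of the 139, 118 do so in both cell types, 17 in eMZB alone and 4 in TrB alone, and the last 21 entered the table through the cell type where they are high. Those called between the cell types are Slc15a3, Slc1a4, Slc25a26, Slc25a33, Slc4a10, Slc5a6, Slc6a9, Slc7a1, Slc7a3 and Slc7a7, and a difference was in part a condition of their being listed.

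The median member had a mean of 2.87 scaled FPKM over the 12 libraries, against 4.34 for all listed genes, and 39 members averaged under 2. Only 18 members averaged at least 10. Slc25a5, which exchanges ADP for ATP across the inner mitochondrial membrane, was the highest at 106, with 123, 125 and 118 in eMZB_KO, 115, 116 and 114 in eMZB_WT, 104, 113 and 65.4 in TrB_KO and 85.2, 88.02 and 103 in TrB_WT. It was not called in any comparison in the fit used throughout, although eMZB and TrB libraries do not overlap in either genotype. With voom it was called higher in the knockout (adjusted p = 0.0307). With limma on the groups compared alone it was called higher in wild type (adjusted p = 0.0265). Reads from its processed copies could not be told from its own. Slc44a2, a choline transporter-like protein, averaged 59.5, the glutamine exchanger Slc1a5 49.3 and the sugar carrier Slc50a1 46.6. Slc30a5, which loads zinc into the secretory pathway, led the metal carriers at 21.4, followed by Slc39a7, which releases zinc from the endoplasmic reticulum, at 14.4 and the heme carrier Slc48a1 at 5.27. The nucleoside carrier Slc28a2 averaged 23.9, Slc35a4 17.1 and the lysosomal nucleoside carrier Slc29a3 5.54. Of the ion class, Slc9a3r1 averaged 14.7 and the Golgi sodium proton exchanger Slc9a7 13.2. Of the sugar class after Slc50a1, the glucose carrier Slc2a1 averaged 6.88, the sugar phosphate carrier Slc37a2 5.86 and the glucose carrier Slc2a3 2.75. The lowest mean, 0.631, belonged to the glycine transporter Slc6a9.

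Summed over the class, mitochondrial carriers came to 309 to 319 scaled FPKM in eMZB_KO, 306 to 316 in eMZB_WT, 257 to 305 in TrB_KO and 269.8 to 279.6 in TrB_WT. The eMZB libraries of either genotype all lie above the TrB libraries. Vitamin, choline, lipid and urea carriers summed to 74.2 to 78.1 in eMZB_KO, 73.6 to 77.8 in eMZB_WT, 88.1 to 105 in TrB_KO and 83.97 to 89.6 in TrB_WT, and here the TrB libraries lie above. These sums weigh mostly the few high genes. All members together made up 0.820% to 0.860% of the summed scaled FPKM of the listed genes in eMZB libraries and 0.842% to 0.931% in TrB libraries.

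Between eMZB and TrB cells 46 of the 139 carriers changed in the knockout and 44 in wild type, in both directions. In the knockout 21 of 139 were higher and 25 lower in eMZB_KO than in TrB_KO, beside a background of 14.2% of all listed genes called higher, 13.2% lower and 27.4% in either direction. In wild type 21 were higher and 23 lower in eMZB_WT than in TrB_WT, beside 14.6% higher, 12.7% lower and 27.4% in either direction. The members' share, 33.1% in the knockout and 31.7% in wild type, is thus close to that of the listed genes. Among the 118 members that reach the table's threshold in both cell types, 15 were higher and 23 lower in the knockout, and 16 higher and 20 lower in wild type. The median log2 difference of all 139 was -0.08 in the knockout and -0.02 in wild type, against -0.01 and 0.00 over all listed genes. Both directions were called in most classes. Mitochondrial carriers gave 5 higher and 9 lower of 34 in the knockout and 6 higher and 8 lower in wild type. Amino acid and peptide carriers gave 7 higher and 5 lower of 26 in the knockout and 5 higher and 7 lower in wild type. These counts include Slc1a4, Slc6a9, Slc7a1, Slc7a3, Slc7a7 and Slc15a3, which reached the listing threshold in 1 cell type alone. Of the 20 metal and heme carriers 1 was called in this fit, the same gene in both genotypes, and voom called further ones, as given below.

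The genotypes share no library, so the calls of each can be set beside the other. They do share the spread estimated per gene over all 12 libraries, so the calls are not independent. The wild-type call of Slc19a1, for instance, was lost when any eMZB_KO library was left out. There were 12 members higher in both, 57.1% of the list of either genotype, and 18 lower in both, 72.0% of the knockout list and 78.3% of the wild-type list. Over all listed genes the shared calls were 71.2% of the knockout list and 69.1% of the wild-type list of higher genes, and 66.2% and 68.5% of the lower genes. No member was called in opposite directions. The members called in 1 genotype are not shown to differ between genotypes, since 0 of 139 passed the test of the interaction.

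The scale of the libraries matters for the balance of these counts. On FPKM as deposited, the median of all genes moved up by 0.23 on the log2 scale in the knockout and by 0.67 in wild type. There 7 members were called higher and 1 lower in the knockout, beside 4.67% of listed genes in either direction, and 27 higher and 1 lower in wild type, beside 19.3%, so the falls in the text below are relative to the median gene. The difference as deposited has the opposite sign for 11 of the 23 wild-type falls, those of Slc12a4, Slc12a9, Slc1a5, Slc25a15, Slc25a20, Slc25a22, Slc25a37, Slc25a53, Slc43a1, Slc50a1 and Slc7a6os, and for none of the 21 wild-type rises or the 46 knockout calls. The share of reads in listed genes also differed between the cell types, and its part in these differences was not tested. Without the libraries labelled eMZB_WT replicate 3 and TrB_WT replicate 3, 13 members were higher and 15 lower in wild type, 27 of these 28 among the 44. With voom the wild-type calls of Slc16a7, Slc22a21, Slc25a33, Slc29a1, Slc38a7 and Slc4a10 were lost. With a pseudocount of 0.1 the wild-type calls of Slc19a1, Slc22a21, Slc25a13 and Slc4a10 and the knockout calls of Slc16a7, Slc25a24 and Slc7a3 were lost.

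Leaving out 1 library at a time, 35 of the 46 knockout calls and 24 of the 44 wild-type calls were kept in each of the 12 fits. In the knockout, Slc46a3 lost its call without eMZB_KO replicate 3 and Slc7a3 lost its call without eMZB_KO replicate 1. The knockout calls of Slc12a9, Slc16a7, Slc17a9, Slc25a24, Slc25a4, Slc27a1, Slc2a3, Slc2a4rg-ps and Slc37a3 were each lost in 2 or more of these fits, with a highest adjusted p between 0.0573 and 0.186. In wild type, Slc25a3 lost its call without eMZB_WT replicate 2, Slc25a46 lost its call without eMZB_WT replicate 3, Slc2a4rg-ps lost its call without eMZB_WT replicate 3, Slc43a1 lost its call without eMZB_WT replicate 1 and Slc7a6os lost its call without eMZB_WT replicate 1. The wild-type calls of Slc12a9, Slc16a7, Slc19a1, Slc20a1, Slc22a21, Slc25a13, Slc25a24, Slc25a26, Slc25a33, Slc25a45, Slc26a11, Slc29a1, Slc38a7, Slc4a10 and Slc5a6 were each lost in 2 or more of these fits, with a highest adjusted p between 0.0633 and 0.168.

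**Figure D1:**
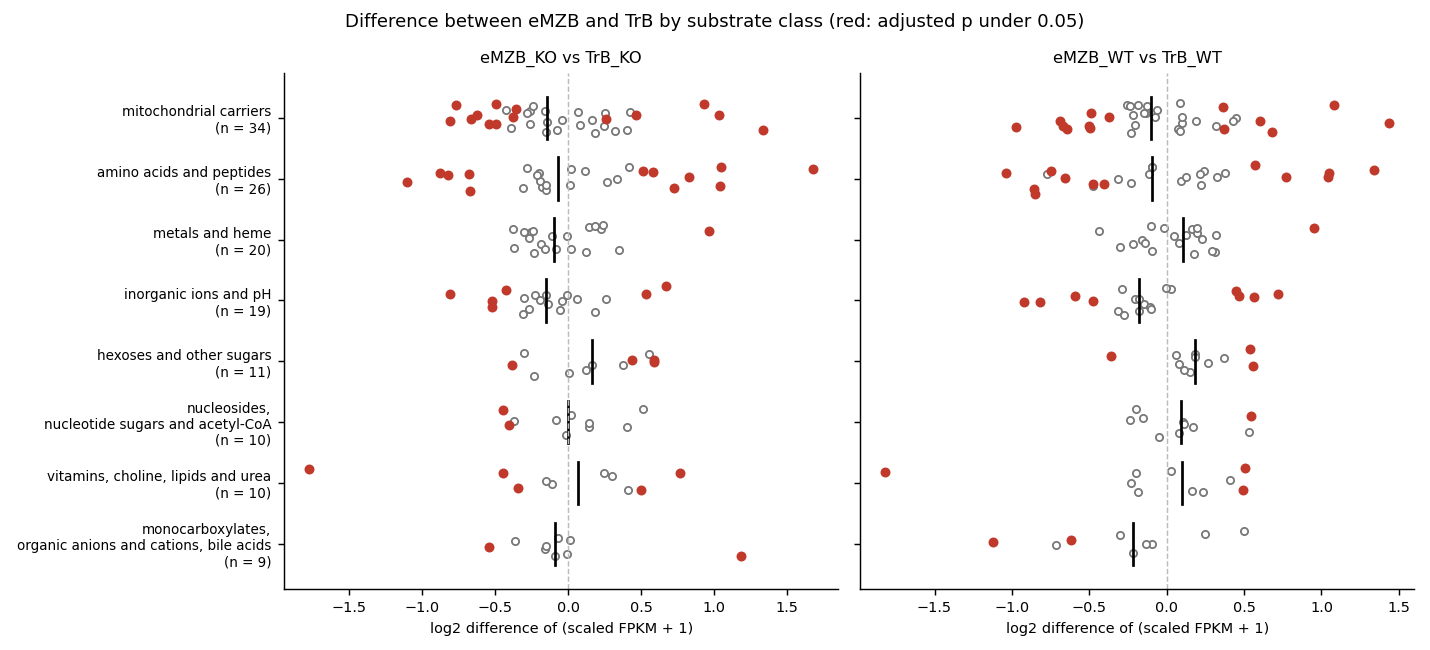
Log2 difference of each of the 139 members between eMZB_KO and TrB_KO (left) and between eMZB_WT and TrB_WT (right), on the x axis, by substrate class on the y axis; each point is a gene, red where the adjusted p is under 0.05, and the black bar is the class median. Medians lie near 0 in each class, between -0.22 and 0.18, while single genes reach 1.68 and -1.82.

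Promoter sequence was examined for a pair of motifs that occur in genes of nutrient supply. CACGTG is the E-box read by MYC and by the MiT/TFE factors, and TGATGNAA is the core of the element read by C/EBP and ATF factors. Both were searched on both strands of the RefSeq window from 250 bases before to 50 bases after the start (GRCm38.p6), where 105 members have a window. CACGTG was in 20% of these 105 genes, 21 in all, against 12.3% of the 7831 listed genes with a window and 8.09% of all 27025 genes in the table. TGATGNAA was in 4.76% of the members, against 2.95% and 4.51%. Of the members higher in both genotypes 2 of 8 with a window hold CACGTG, Slc20a1 and Slc25a33, and of those lower in both 2 of 11, Slc12a9 and Slc25a15. The match thus occurs on both sides, and it marks neither a bound site nor a cause. The 250 bases before the start are shown for carriers described below, with each match in capitals. Slc20a1 (chr2:129198523-129198772, plus strand) and Slc25a33 (chr4:149774268-149774517, minus strand) stand for the higher genes, Slc25a15 (chr8:22398278-22398527, minus strand) for the lower ones. Slc16a1 (chr3:104638414-104638663, plus strand) and Slc7a7 (chr14:54417945-54418194, minus strand) are among the members of smallest p for LSD1 loss in eMZB. Counted from the start, matches begin at -175 and -22 in Slc20a1, -8 in Slc25a33, -77 in Slc25a15, -200 in Slc16a1 and -141 in Slc7a7.
Slc20a1: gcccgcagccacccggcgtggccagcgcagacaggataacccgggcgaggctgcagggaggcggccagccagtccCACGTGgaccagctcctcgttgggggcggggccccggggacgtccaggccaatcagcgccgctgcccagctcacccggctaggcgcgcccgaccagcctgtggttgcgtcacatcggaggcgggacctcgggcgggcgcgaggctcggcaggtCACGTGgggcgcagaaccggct
Slc25a33: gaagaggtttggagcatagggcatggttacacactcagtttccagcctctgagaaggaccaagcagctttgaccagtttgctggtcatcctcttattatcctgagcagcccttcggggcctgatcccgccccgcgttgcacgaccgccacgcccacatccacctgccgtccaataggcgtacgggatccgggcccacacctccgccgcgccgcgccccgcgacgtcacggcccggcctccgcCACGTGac
Slc25a15: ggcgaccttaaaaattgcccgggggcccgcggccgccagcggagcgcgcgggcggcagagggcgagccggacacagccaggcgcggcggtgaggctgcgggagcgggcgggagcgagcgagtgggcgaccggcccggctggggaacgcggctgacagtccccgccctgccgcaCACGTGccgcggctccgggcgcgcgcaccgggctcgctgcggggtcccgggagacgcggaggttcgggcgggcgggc
Slc16a1: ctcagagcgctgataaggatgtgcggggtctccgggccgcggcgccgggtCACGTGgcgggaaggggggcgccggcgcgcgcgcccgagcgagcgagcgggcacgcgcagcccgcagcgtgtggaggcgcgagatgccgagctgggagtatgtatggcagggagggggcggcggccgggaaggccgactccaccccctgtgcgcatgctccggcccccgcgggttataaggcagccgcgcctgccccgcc
Slc7a7: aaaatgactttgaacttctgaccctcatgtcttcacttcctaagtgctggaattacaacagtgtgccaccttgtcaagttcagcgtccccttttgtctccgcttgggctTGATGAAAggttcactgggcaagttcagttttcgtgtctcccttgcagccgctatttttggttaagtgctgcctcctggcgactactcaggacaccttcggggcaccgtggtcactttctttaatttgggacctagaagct

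Among amino acid carriers, the importers Slc1a4, Slc7a1, Slc6a9 and Slc38a2 were higher in eMZB in both genotypes, while the glutamine exchanger Slc1a5, the large neutral carrier Slc43a2 and the lysosomal proteins Slc38a9 and Slc15a3 were lower. Of these, Slc1a4, Slc7a1 and Slc6a9 reached the listing threshold in eMZB alone and Slc15a3 in TrB alone. Their differences, and the p-values given for them, were thus in part a condition of their being listed. Slc1a4 had 3.77, 4.06 and 3.38 scaled FPKM in eMZB_KO, against 0.907, 0.413 and 0.2000 in TrB_KO, and 4.19, 3.19 and 3.41 in eMZB_WT, against 1.27, 0.876 and 0.389 in TrB_WT. Slc1a4 (chr11:20302180-20332713, mm10) encodes an exchanger of alanine, serine and cysteine, and its groups do not overlap in either genotype (log2 difference 1.68 ± 0.20 in the knockout (adjusted p = 6.55e-05) and 1.34 ± 0.20 in wild type (adjusted p = 0.000378)). Slc7a1 had 3.49, 4.06 and 3.57 scaled FPKM in eMZB_KO, against 1.403, 1.23 and 1.24 in TrB_KO, and 3.79, 2.68 and 4.13 in eMZB_WT, against 0.957, 1.300 and 1.303 in TrB_WT. This gene (chr5:148327410-148399904) encodes CAT1, the main importer of arginine and lysine, and every eMZB library lies above every TrB library (log2 difference 1.04 ± 0.14 in the knockout (adjusted p = 0.00015) and 1.04 ± 0.14 in wild type (adjusted p = 0.000149)). Slc6a9 had 1.07, 0.995 and 1.27 scaled FPKM in eMZB_KO, against 0, 0.0708 and 0 in TrB_KO, and 1.17, 1.11 and 1.57 in eMZB_WT, against 0.186, 0 and 0.127 in TrB_WT. The glycine transporter gene (chr4:117835258-117869305) was thus close to 0 in TrB and near 1 in eMZB (log2 difference 1.04 ± 0.16 in the knockout (adjusted p = 0.000408) and 1.05 ± 0.16 in wild type (adjusted p = 0.000391)). It overlaps Ccdc24 and B4galt2 on the opposite strand, and without strand the reads of overlapping genes cannot be told apart.

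The most abundant importer to rise was Slc38a2, which brings in neutral amino acids together with sodium. Slc38a2 had 23.2, 23.6 and 26.8 scaled FPKM in eMZB_KO, against 15.3, 15.6 and 20.2 in TrB_KO, and 25.97, 24.99 and 30.8 in eMZB_WT, against 16.6, 14.2 and 15.9 in TrB_WT. Groups do not overlap in either genotype (log2 difference 0.51 ± 0.12 in the knockout (adjusted p = 0.00678) and 0.77 ± 0.12 in wild type (adjusted p = 0.000469)). The other rises were called in 1 genotype. Of these, Slc7a3 and Slc7a7 again reached the listing threshold in eMZB alone. Slc7a3, another carrier of arginine and lysine, averaged 2.16 ± 0.325 scaled FPKM in eMZB_KO and 0.883 ± 0.695 in TrB_KO, and 1.905 ± 0.0466 in eMZB_WT and 1.32 ± 0.0301 in TrB_WT (log2 difference 0.82 (adjusted p = 0.0206) in the knockout and 0.33 (adjusted p = 0.329) in wild type). TrB_KO replicate 3, at 0.0806, is far below the other TrB libraries for this gene. The knockout call of Slc7a3 was kept without that library and lost without eMZB_KO replicate 1. It was also lost with a pseudocount of 0.1 (limma adjusted p = 0.0592) and with the groups compared alone (limma adjusted p = 0.0731). Over the fits that leave out 1 library its log2 difference lay between 0.46 and 1.01. Slc7a7, the light chain of an exchanger of cationic for neutral amino acids, averaged 3.18 ± 0.284 scaled FPKM in eMZB_KO and 1.53 ± 0.198 in TrB_KO, and 1.64 ± 0.408 in eMZB_WT and 1.25 ± 0.185 in TrB_WT (log2 difference 0.72 (adjusted p = 0.00228) in the knockout and 0.22 (adjusted p = 0.273) in wild type). It overlaps Oxa1l on the opposite strand. Slc17a9, which loads nucleotides into vesicles although its family carries amino acids and anions, was higher in the knockout by 0.58 (adjusted p = 0.0177), with 0.24 (adjusted p = 0.283) in wild type. Slc38a7, the lysosomal exporter of glutamine, was higher in wild type by 0.57 (adjusted p = 0.0268), with 0.42 (adjusted p = 0.0966) in the knockout.

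On the falling side, Slc1a5 was the third most abundant of all members. Slc1a5 had 39.3, 38.8 and 37.97 scaled FPKM in eMZB_KO, against 57.8, 60.1 and 70.2 in TrB_KO, and 39.5, 34.7 and 35.2 in eMZB_WT, against 64.3, 72.2 and 41.8 in TrB_WT. Slc1a5 (chr7:16781334-16798274) encodes ASCT2, which takes up glutamine, and it was lower in eMZB in both genotypes (log2 difference -0.68 ± 0.16 in the knockout (adjusted p = 0.00696) and -0.65 ± 0.16 in wild type (adjusted p = 0.00878)). On FPKM as deposited its wild-type difference is 0.20. Slc43a2 had 2.27, 2.37 and 2.31 scaled FPKM in eMZB_KO, against 5.52, 6.15 and 6.76 in TrB_KO, and 2.77, 2.63 and 3.03 in eMZB_WT, against 5.17, 5.304 and 5.68 in TrB_WT. Slc43a2 (chr11:75529915-75577575), a facilitator of leucine, phenylalanine and methionine passage, fell in both genotypes (log2 difference -1.10 ± 0.10 in the knockout (adjusted p = 5.04e-06) and -0.74 ± 0.10 in wild type (adjusted p = 0.000123)). Its relative Slc43a1 was lower in wild type with a log2 difference of -0.48 (adjusted p = 0.0135), with -0.28 (adjusted p = 0.118) in the knockout.

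Slc38a9 had 1.73, 1.77 and 1.73 scaled FPKM in eMZB_KO, against 3.304, 3.13 and 3.72 in TrB_KO, and 1.65, 1.72 and 1.68 in eMZB_WT, against 3.66, 3.89 and 3.96 in TrB_WT. Slc38a9 (chr13:112656189-112738752) sits in the lysosomal membrane and signals arginine there to mTORC1, and its groups do not overlap (log2 difference -0.68 ± 0.10 in the knockout (adjusted p = 0.000279) and -0.85 ± 0.10 in wild type (adjusted p = 4.32e-05)). Slc15a3 had 0.547, 0.501 and 0.6801 scaled FPKM in eMZB_KO, against 1.62, 1.73 and 2.04 in TrB_KO, and 0.204, 0.258 and 0.278 in eMZB_WT, against 1.82, 1.59 and 1.302 in TrB_WT. Slc15a3, a lysosomal carrier of histidine and peptides, was below 1 in all eMZB libraries (log2 difference -0.83 ± 0.14 in the knockout (adjusted p = 0.000866) and -1.04 ± 0.14 in wild type (adjusted p = 0.000156)). It overlaps Tmem132a on the opposite strand. Slc36a4, a carrier of proline and tryptophan, fell with log2 differences of -0.88 (adjusted p = 0.00789) in the knockout and -0.85 (adjusted p = 0.00943) in wild type. The other lysosomal peptide carrier, Slc15a4, which B cells use in signalling by endosomal Toll-like receptors, was not called. It averaged 15.6 ± 0.801 scaled FPKM in eMZB_KO and 15.5 ± 1.14 in TrB_KO, and 16.5 ± 0.453 in eMZB_WT and 14.6 ± 5.098 in TrB_WT. Slc7a6os, no carrier itself, was lower in wild type with a log2 difference of -0.41 (adjusted p = 0.0135).

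**Figure D2:**
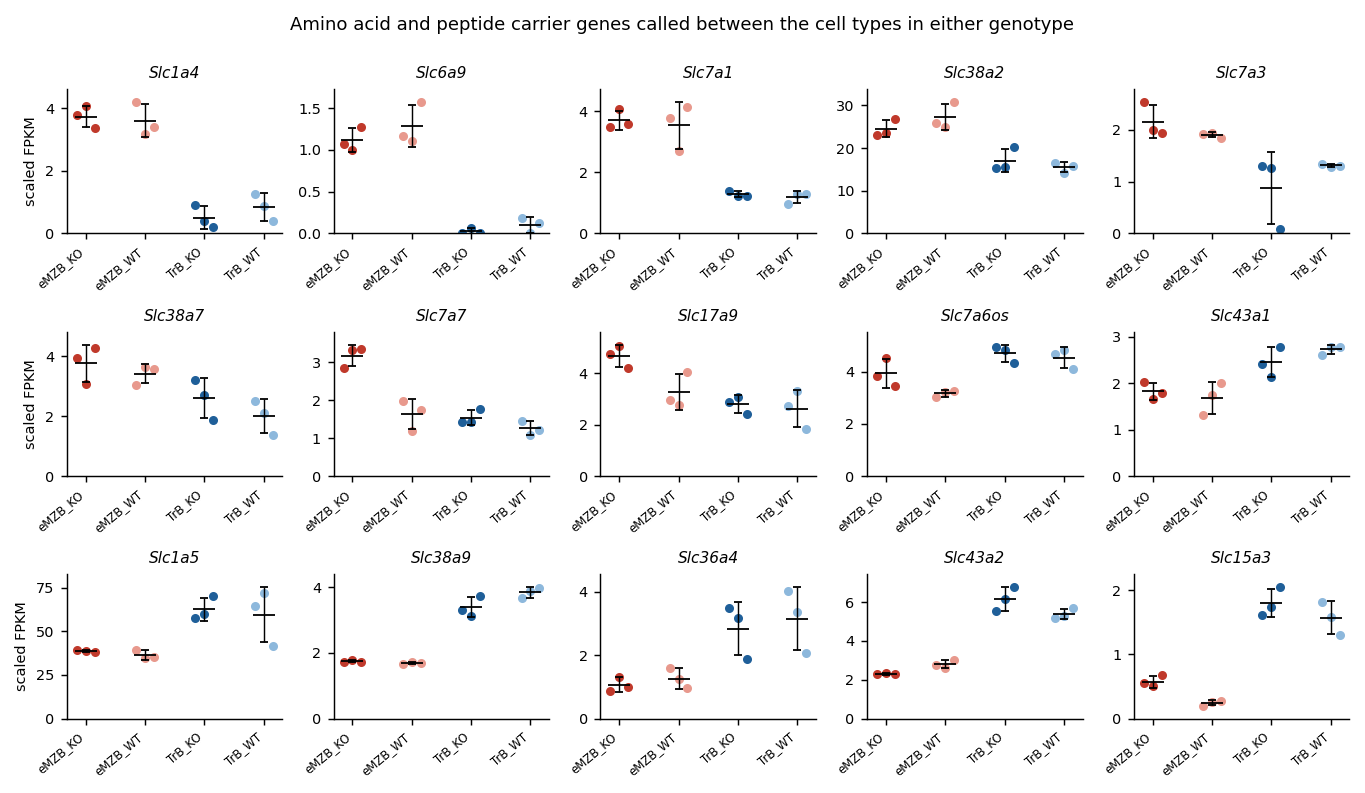
Scaled FPKM (y axis, from 0, own scale per gene) of the 15 amino acid and peptide family genes called between the cell types in either genotype, by group on the x axis; points are the 3 libraries, the bar and whiskers the mean and SD. Slc6a9, Slc1a4 and Slc7a1 lie higher in every eMZB library than in any TrB library, Slc43a2, Slc15a3 and Slc38a9 lower. Slc6a9, Slc1a4, Slc7a1 and Slc15a3 were listed through the cell type where they are high.

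The mitochondrial carriers Slc25a33 and Slc25a39 were among those higher in eMZB in both genotypes. Slc25a15, Slc25a20, Slc25a22, Slc25a24, Slc25a26, Slc25a37 and Slc25a53 were lower in both. Slc25a33 reached the listing threshold in eMZB alone and Slc25a26 in TrB alone, so their differences were in part a condition of listing. Slc25a39 had 14.6, 14.1 and 17.9 scaled FPKM in eMZB_KO, against 6.16, 7.04 and 8.099 in TrB_KO, and 13.2, 14.2 and 15.6 in eMZB_WT, against 7.45, 6.85 and 4.696 in TrB_WT. Slc25a39 (chr11:102402969-102408675), needed for glutathione import, was higher in every eMZB library than in any TrB library (log2 difference 1.03 ± 0.15 in the knockout (adjusted p = 0.00032) and 1.08 ± 0.15 in wild type (adjusted p = 0.000219)). Slc25a33 had 2.06, 2.23 and 2.45 scaled FPKM in eMZB_KO, against 0.914, 0.412 and 0.819 in TrB_KO, and 2.37, 2.37 and 1.63 in eMZB_WT, against 0.842, 1.46 and 0.591 in TrB_WT. Slc25a33 carries pyrimidine nucleotides, and all TrB libraries are under every eMZB library (log2 difference 0.93 ± 0.18 in the knockout (adjusted p = 0.002599) and 0.68 ± 0.18 in wild type (adjusted p = 0.0154)).

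Further rises of this class were called in 1 genotype. Slc25a12, which exports aspartate in exchange for glutamate, was higher in the knockout by 0.46 (adjusted p = 0.00556), with 0.10 (adjusted p = 0.498) in wild type. Slc25a4, another ADP/ATP exchanger, was higher in the knockout by 0.26 (adjusted p = 0.0499), with 0.10 (adjusted p = 0.453) in wild type, and its call was kept in 3 of the 12 fits that leave out 1 library and was lost with the replicate number as a block (adjusted p = 0.0629). The phosphate carrier Slc25a3 was higher in wild type by 0.37 (adjusted p = 0.0142), with 0.07 (adjusted p = 0.668) in the knockout. Slc25a45 was higher in wild type by 0.60 (adjusted p = 0.0213), with 0.42 (adjusted p = 0.0931) in the knockout. Slc25a46, a protein of the outer mitochondrial membrane that acts in mitochondrial shape, was higher in wild type by 0.36 (adjusted p = 0.0179), with -0.15 (adjusted p = 0.321) in the knockout.

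Slc25a15 had 2.99, 2.61 and 2.62 scaled FPKM in eMZB_KO, against 4.66, 4.88 and 5.22 in TrB_KO, and 2.300, 2.69 and 2.51 in eMZB_WT, against 4.05, 3.95 and 3.85 in TrB_WT. Slc25a15 (chr8:22375550-22398621) exchanges ornithine for citrulline, and it was lower in eMZB in both genotypes (log2 difference -0.66 ± 0.09 in the knockout (adjusted p = 0.000265) and -0.50 ± 0.09 in wild type (adjusted p = 0.00194)). Slc25a20 had 3.57, 5.06 and 3.95 scaled FPKM in eMZB_KO, against 8.29, 8.45 and 7.41 in TrB_KO, and 3.44, 4.46 and 3.45 in eMZB_WT, against 6.203, 5.62 and 8.09 in TrB_WT. Slc25a20 (chr9:108662136-108684642) brings acylcarnitines in for the oxidation of fatty acids, and its eMZB libraries lie below all TrB libraries (log2 difference -0.81 ± 0.14 in the knockout (adjusted p = 0.00129) and -0.67 ± 0.14 in wild type (adjusted p = 0.00445)). Slc25a37 had 3.97, 3.73 and 4.05 scaled FPKM in eMZB_KO, against 5.900, 5.69 and 6.95 in TrB_KO, and 4.02, 3.26 and 3.89 in eMZB_WT, against 5.49, 5.91 and 5.55 in TrB_WT. Slc25a37, or mitoferrin, carries iron for heme and iron-sulfur cluster synthesis, and it fell likewise (log2 difference -0.54 ± 0.10 in the knockout (adjusted p = 0.00182) and -0.50 ± 0.10 in wild type (adjusted p = 0.00319)). Slc25a22, a glutamate carrier, averaged 6.38 ± 0.296 scaled FPKM in eMZB_KO and 8.58 ± 0.757 in TrB_KO, and 6.12 ± 0.313 in eMZB_WT and 8.22 ± 0.346 in TrB_WT (log2 difference -0.38 ± 0.09 in the knockout (adjusted p = 0.00718) and -0.37 ± 0.09 in wild type (adjusted p = 0.00772)). Slc25a53 averaged 2.63 ± 0.368 scaled FPKM in eMZB_KO and 5.17 ± 0.491 in TrB_KO, and 3.36 ± 0.449 in eMZB_WT and 6.03 ± 0.755 in TrB_WT (log2 difference -0.77 ± 0.12 in the knockout (adjusted p = 0.00067) and -0.69 ± 0.12 in wild type (adjusted p = 0.00139)), and 5318 bases of it overlap Zcchc18 on the opposite strand, so its value may hold reads of that gene. Slc25a24, an ATP-Mg and phosphate exchanger, fell with -0.62 in the knockout and -0.65 in wild type, and the carrier of S-adenosylmethionine Slc25a26 with -0.49 in the knockout and -0.49 in wild type. In the knockout alone the oxoglutarate and malate exchanger Slc25a11 was lower with a log2 difference of -0.36 (adjusted p = 0.00283) and the pyrimidine nucleotide carrier Slc25a36 with one of -0.50 (adjusted p = 0.004000), with -0.13 (adjusted p = 0.197) and -0.22 (adjusted p = 0.139) in wild type. The other aspartate and glutamate exchanger, Slc25a13, was called lower in wild type alone with a log2 difference of -0.98 (adjusted p = 0.0196), with -0.08 (adjusted p = 0.866) in the knockout. The knockout value includes TrB_KO replicate 3, at 0.262 scaled FPKM. The other TrB_KO libraries, at 1.82 and 1.81, lie above all eMZB_KO libraries. On FPKM as deposited the wild-type differences of Slc25a15, Slc25a20, Slc25a22, Slc25a37 and Slc25a53 lie between 0.022 and 0.38.

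**Figure D3:**
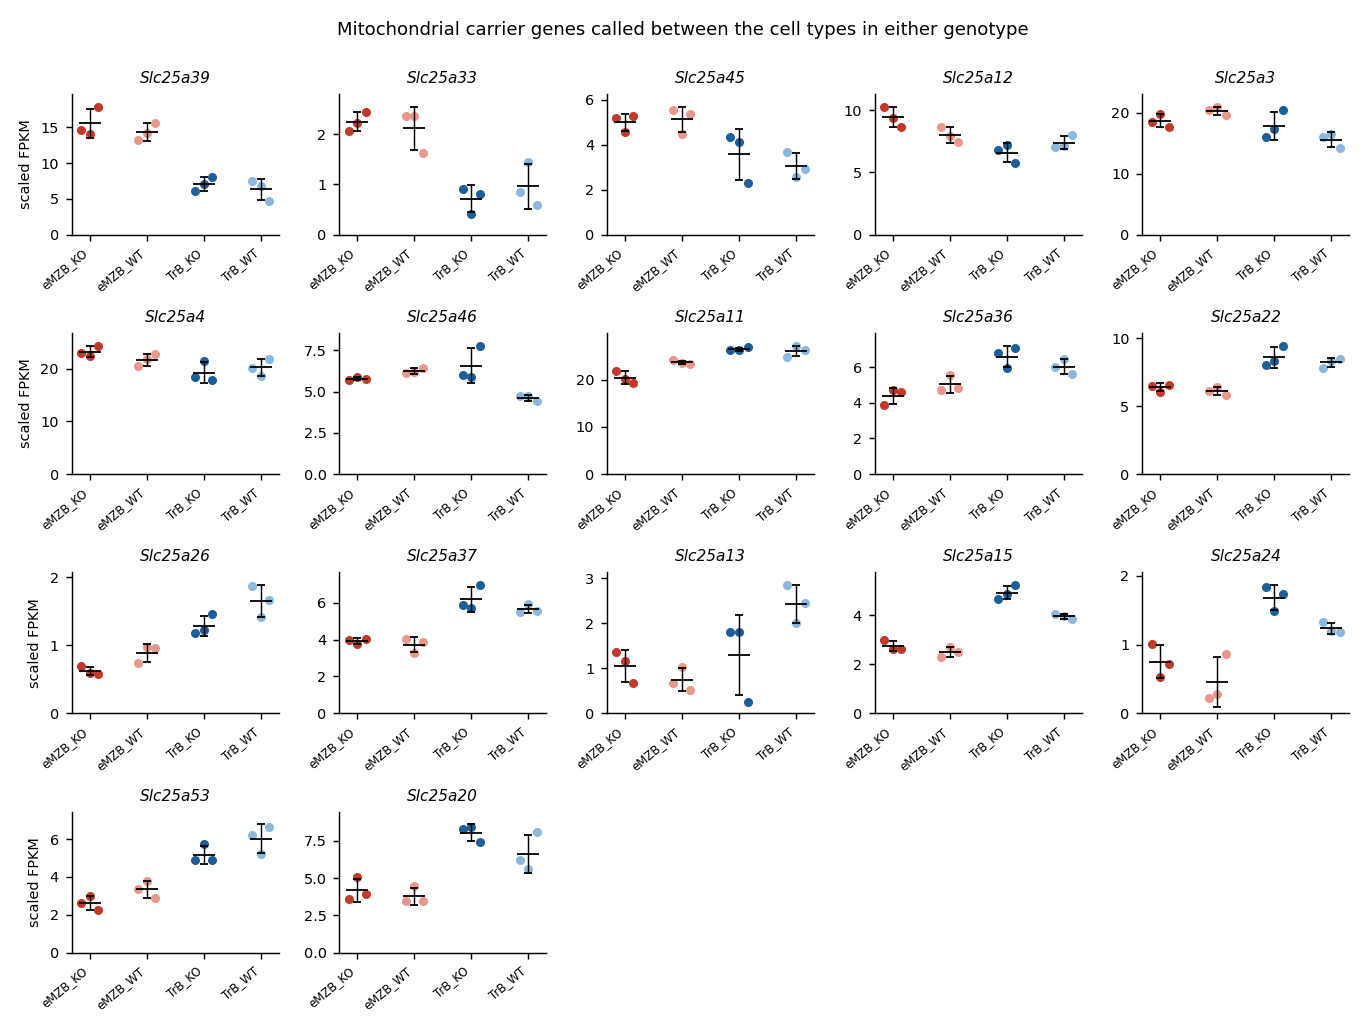
Scaled FPKM (y axis, from 0, own scale per gene) of mitochondrial carrier genes called between the cell types in either genotype, by group on the x axis; points are the 3 libraries, the bar and whiskers the mean and SD. Slc25a39 and Slc25a33 separate the cell types upward in both genotypes, Slc25a15 and Slc25a20 downward, and Slc25a13 shows 1 TrB_KO library far below the others.

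Of the metal carriers, the zinc importer Slc39a6 was called in the fit used throughout. Slc39a6 had 6.29, 5.03 and 6.42 scaled FPKM in eMZB_KO, against 3.36, 1.65 and 2.78 in TrB_KO, and 4.996, 4.41 and 6.04 in eMZB_WT, against 1.66, 2.24 and 2.64 in TrB_WT. Its groups do not overlap (log2 difference 0.97 ± 0.19 in the knockout (adjusted p = 0.00211) and 0.95 ± 0.19 in wild type (adjusted p = 0.00235)), and it shares bases with Elp2 on the opposite strand. The other 19 metal and heme carriers had log2 differences between -0.38 and 0.35 in the knockout, and between -0.43 and 0.32 in wild type. With voom Slc30a5, Slc39a7, Slc48a1 and Slc49a4 were also called lower in the knockout (adjusted p 0.017 to 0.0484). Slc49a4 was called lower in wild type with voom too (adjusted p = 0.04998). Upper-quartile scaling called Slc48a1 lower in the knockout (limma adjusted p = 0.0365).

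Of the ion carriers the phosphate importers Slc20a1 and Slc20a2 were higher in eMZB in both genotypes, and the sulfate carrier Slc26a2 and the potassium chloride cotransporter Slc12a4 and its relative Slc12a9 were lower. Slc20a1 had 3.05, 3.53 and 3.503 scaled FPKM in eMZB_KO, against 1.42, 1.49 and 2.403 in TrB_KO, and 3.58, 3.01 and 2.94 in eMZB_WT, against 2.202, 1.599 and 2.299 in TrB_WT. Slc20a2 had 4.16, 4.34 and 4.11 scaled FPKM in eMZB_KO, against 2.06, 2.77 and 3.02 in TrB_KO, and 3.54, 3.61 and 4.33 in eMZB_WT, against 1.73, 2.19 and 1.896 in TrB_WT. Both encode sodium phosphate cotransporters of the plasma membrane, Slc20a1 with log2 differences of 0.67 (adjusted p = 0.00546) in the knockout and 0.47 (adjusted p = 0.0356) in wild type, Slc20a2 with 0.53 (adjusted p = 0.00658) and 0.72 (adjusted p = 0.00106). Slc20a2 overlaps Smim19 on the opposite strand. The wild-type call of Slc20a1 was kept in 5 of the 12 fits that leave out 1 library. Slc26a2 had 2.34, 2.89 and 1.84 scaled FPKM in eMZB_KO, against 5.87, 3.84 and 4.95 in TrB_KO, and 2.300, 2.96 and 2.496 in eMZB_WT, against 5.69, 4.56 and 5.78 in TrB_WT. Slc26a2 (chr18:61196854-61211596) takes up sulfate, and its groups do not overlap (log2 difference -0.81 ± 0.16 in the knockout (adjusted p = 0.00219) and -0.82 ± 0.16 in wild type (adjusted p = 0.00201)). The potassium chloride cotransporter Slc12a4 averaged 1.98 ± 0.132 scaled FPKM in eMZB_KO and 3.32 ± 0.795 in TrB_KO, and 2.04 ± 0.136 in eMZB_WT and 3.597 ± 0.211 in TrB_WT (log2 difference -0.52 ± 0.13 in the knockout (adjusted p = 0.0112) and -0.60 ± 0.13 in wild type (adjusted p = 0.00566)). Slc12a9 fell with -0.43 in the knockout and -0.48 in wild type. In wild type alone Slc26a11 was higher by 0.45 (adjusted p = 0.0167), the Golgi exchanger Slc9a7 higher by 0.56 (adjusted p = 0.0117), and the bicarbonate carrier Slc4a10 lower with a log2 difference of -0.92 (adjusted p = 0.04798). Their knockout differences were 0.26 (adjusted p = 0.139), 0.06 (adjusted p = 0.805) and -0.31 (adjusted p = 0.519), and the call of Slc4a10 was kept in 2 of the 12 fits that leave out 1 library. For Slc4a10, TrB_KO replicate 3, at 0.0958 scaled FPKM, lies below all eMZB libraries, and the other TrB libraries lie above them.

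The urea carrier gene Slc14a1 had the largest fall of all members. Slc14a1 had 2.33, 1.92 and 1.67 scaled FPKM in eMZB_KO, against 8.29, 8.51 and 10.8 in TrB_KO, and 1.61, 1.31 and 1.79 in eMZB_WT, against 7.42, 7.65 and 9.13 in TrB_WT. Every eMZB library lies far below every TrB library (log2 difference -1.77 ± 0.13 in the knockout (adjusted p = 1.55e-06) and -1.82 ± 0.13 in wild type (adjusted p = 1.11e-06)). The folate carrier gene Slc19a1 went the other way, with 3.67 ± 0.231 scaled FPKM in eMZB_KO and 1.81 ± 0.692 in TrB_KO, and 2.55 ± 0.457 in eMZB_WT and 1.49 ± 0.178 in TrB_WT. Its log2 differences were 0.77 (adjusted p = 0.00584) in the knockout and 0.50 (adjusted p = 0.0475) in wild type, and the wild-type call was kept in 3 of the 12 fits that leave out 1 library. The vitamin C carrier Slc23a2 was higher in wild type by 0.49 (adjusted p = 0.00917), with 0.24 (adjusted p = 0.162) in the knockout. Slc5a6, which by its family counts as a sugar carrier but moves biotin and pantothenate, was higher in wild type by 0.56 (adjusted p = 0.0221), with 0.38 (adjusted p = 0.106) in the knockout. The lysosomal carrier Slc46a3 was higher in the knockout by 0.50 (adjusted p = 0.0125), with 0.23 (adjusted p = 0.196) in wild type. The fatty acid transport protein Slc27a1 was lower in the knockout with a log2 difference of -0.45 (adjusted p = 0.0123) and Slc44a2 with one of -0.34 (adjusted p = 0.0112), with -0.19 (adjusted p = 0.2603) and -0.20 (adjusted p = 0.112) in wild type.

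Among sugar carriers the main glucose importer Slc2a1 was not called in either genotype. Slc2a1 had 7.202, 7.03 and 6.35 scaled FPKM in eMZB_KO, against 6.72, 5.98 and 7.85 in TrB_KO, and 7.15, 7.17 and 7.54 in eMZB_WT, against 5.86, 6.22 and 7.44 in TrB_WT. Its log2 differences were 0.01 (adjusted p = 0.971) in the knockout and 0.15 (adjusted p = 0.342) in wild type. Slc2a3, the glucose carrier of high affinity, was higher in the knockout by 0.59 (adjusted p = 0.0301), with 0.37 (adjusted p = 0.148) in wild type, and Slc37a3 by 0.58 (adjusted p = 0.0231), with 0.19 (adjusted p = 0.455). Slc50a1, the abundant sugar efflux carrier, was lower in both genotypes, with 39.4 ± 2.08 scaled FPKM in eMZB_KO and 51.8 ± 4.75 in TrB_KO, and 41.4 ± 1.62 in eMZB_WT and 53.7 ± 5.29 in TrB_WT (log2 difference -0.38 ± 0.09 in the knockout (adjusted p = 0.00821) and -0.36 ± 0.09 in wild type (adjusted p = 0.0115)). The pseudogene Slc2a4rg-ps was higher with 0.44 in the knockout and 0.54 in wild type.

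Slc16a1 had 4.296, 4.096 and 4.66 scaled FPKM in eMZB_KO, against 2.05, 1.204 and 0.945 in TrB_KO, and 3.01, 1.89 and 3.09 in eMZB_WT, against 1.87, 1.35 and 1.47 in TrB_WT. Slc16a1 encodes MCT1, which carries lactate and pyruvate with a proton. It was called higher in the knockout (log2 difference 1.18 (adjusted p = 0.000455)) and missed the threshold in wild type (0.50 (adjusted p = 0.0563)), and the test of the interaction gave an adjusted p of 0.686. In wild type it was called with voom (adjusted p = 0.0365) and with the replicate number as a block (adjusted p = 0.0378). Its relative Slc16a7 was lower in both genotypes, with -0.54 in the knockout and -0.62 in wild type. With the replicate number as a block its knockout call was lost (adjusted p = 0.0653), and with voom its wild-type call (adjusted p = 0.0544). Slc22a21, an organic cation and carnitine carrier close in sequence to Slc22a5, was lower in wild type with a log2 difference of -1.12 (adjusted p = 0.0216), with -0.07 (adjusted p = 0.9001) in the knockout. The knockout value includes TrB_KO replicate 3, at 0.0285 scaled FPKM. The other TrB_KO libraries, at 1.32 and 2.32, lie above all eMZB_KO libraries. Of the nucleoside carriers, the concentrative carrier Slc28a2 was lower in the knockout with a log2 difference of -0.45 (adjusted p = 0.00805), with -0.15 (adjusted p = 0.325) in wild type. Its near copy Slc28a2b was lower in the knockout with a log2 difference of -0.41 (adjusted p = 0.00895), and reads could not be split between the copies with certainty. The equilibrative carrier Slc29a1 was higher in wild type by 0.54 (adjusted p = 0.0179), with 0.40 (adjusted p = 0.0681) in the knockout.

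In all, 8 members were more than 3 times lower in TrB_KO replicate 3 than in each other TrB library, 5.76% of members, against 5.27% of all listed genes. They are Slc12a2, Slc22a21, Slc22a26, Slc25a13, Slc25a14, Slc4a10, Slc6a3 and Slc7a3, and they were singled out after their values were seen. Slc6a3, the dopamine transporter of neurons, had 0 scaled FPKM in TrB_KO replicate 3, 1.096 to 2.32 in the other 5 TrB libraries and 0.452 to 1.21 in the 6 eMZB libraries. Slc22a26 had 0 scaled FPKM in TrB_KO replicate 3, 1.45 to 2.04 in the other 5 TrB libraries and 0.683 to 1.48 in the 6 eMZB libraries. Slc22a21 had 0.0285 scaled FPKM in TrB_KO replicate 3, 1.32 to 3.200 in the other 5 TrB libraries and 0.529 to 1.11 in the 6 eMZB libraries. Slc25a13 had 0.262 scaled FPKM in TrB_KO replicate 3, 1.81 to 2.84 in the other 5 TrB libraries and 0.527 to 1.36 in the 6 eMZB libraries. Slc4a10 had 0.0958 scaled FPKM in TrB_KO replicate 3, 1.304 to 2.34 in the other 5 TrB libraries and 0.318 to 1.04 in the 6 eMZB libraries. Slc12a2 had 0.201 scaled FPKM in TrB_KO replicate 3, 1.19 to 1.73 in the other 5 TrB libraries and 0.733 to 1.802 in the 6 eMZB libraries. Slc25a14 had 0.386 scaled FPKM in TrB_KO replicate 3, 1.79 to 3.45 in the other 5 TrB libraries and 1.22 to 2.89 in the 6 eMZB libraries. In Slc7a3 the eMZB libraries, at 1.85 to 2.54, lie above the other TrB libraries, at 1.27 to 1.35. The share of reads in listed genes also sets this library apart, and its part in these levels was not tested. Of the 8, Slc22a21, Slc25a13 and Slc4a10 are called lower in eMZB_WT and Slc7a3 higher in eMZB_KO, as given above. In Slc22a21, Slc25a13 and Slc4a10 the other TrB_KO libraries lie above all eMZB_KO libraries. TrB_KO replicate 3 thus makes their fall in the knockout smaller.

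**Figure D4:**
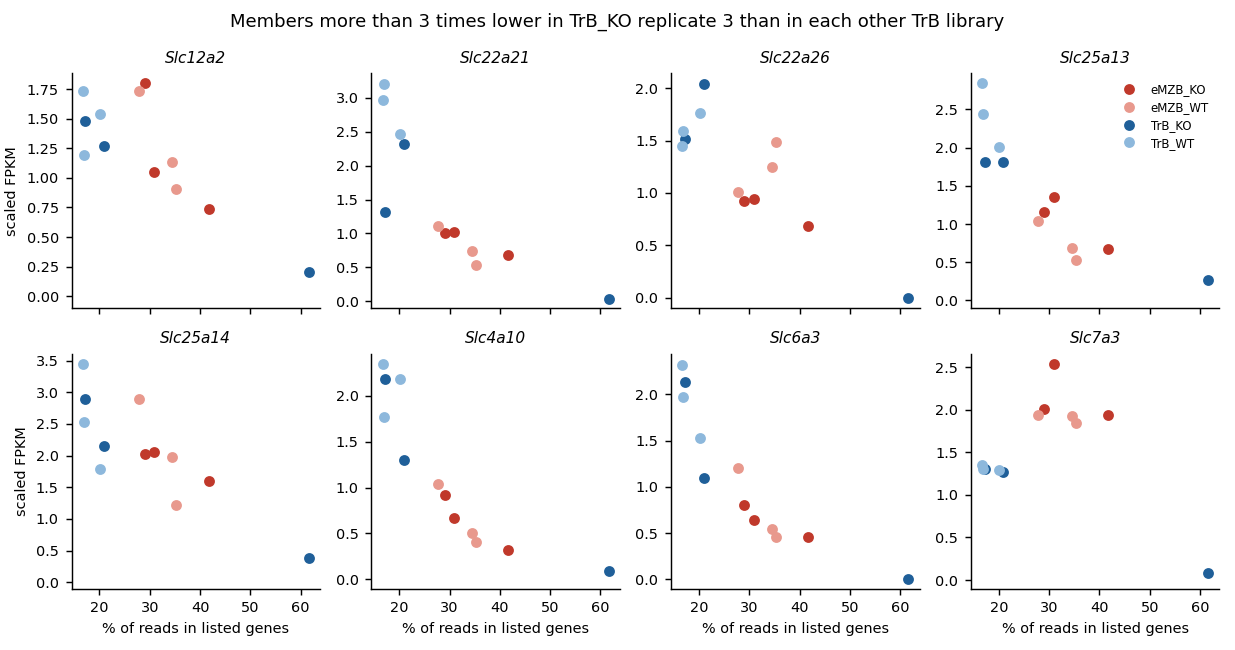
Scaled FPKM (y axis) of the 8 members that are more than 3 times lower in TrB_KO replicate 3 than in each other TrB library, against the percent of a library's reads that lie in listed genes (x axis); each point is 1 of 12 libraries, coloured by group. TrB_KO replicate 3 stands alone at 61.6%, with values from 0 to 0.386.

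Loss of LSD1 changed no solute carrier gene past the threshold in either cell type. Kdm1a itself was not called by the same fit, at -1.10 in eMZB (adjusted p = 0.148) and -0.87 in TrB (adjusted p = 0.249). In eMZB, 0 of 139 were called between eMZB_KO and eMZB_WT by limma on scaled FPKM, beside a background of 0.406% of all listed genes. At an unadjusted p under 0.05 there were 13 members, beside 5.39% of listed genes. In TrB, 0 of 139 were called between TrB_KO and TrB_WT, beside 0.498%, and 10 at an unadjusted p under 0.05, beside 9.91%. The interaction, the difference between the LSD1 differences of eMZB and TrB, gave 0 calls beside 0.0102%, and 11 members at an unadjusted p under 0.05, beside 6.85%. With voom on reads recovered from the FPKM, 1 member was called in eMZB, Slc26a11, beside 0.528% of listed genes, and 0 in TrB, beside 0.213%, and in the interaction, beside 0.0102%. Groups of libraries did not overlap for 31 members in eMZB, beside 18.4% of listed genes, and for 12 in TrB, beside 10.5%. The median log2 difference of the members was -0.02 in eMZB and 0.05 in TrB, and single members ranged from -0.50 to 0.67 in eMZB and from -0.95 to 0.42 in TrB. A p that misses the threshold does not show that the levels were equal.

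The smallest p in eMZB belonged to Slc7a7. It had 2.85, 3.32 and 3.36 scaled FPKM in eMZB_KO, against 1.97, 1.18 and 1.75 in eMZB_WT, and 1.42, 1.42 and 1.76 in TrB_KO, against 1.45, 1.09 and 1.22 in TrB_WT. All eMZB_KO libraries lie above all eMZB_WT libraries, and the log2 difference was 0.67 ± 0.14 in eMZB (adjusted p = 0.0793) and 0.17 ± 0.14 in TrB (adjusted p = 0.703). Slc26a11 had 1.92, 1.99 and 2.08 scaled FPKM in eMZB_KO, against 3.46, 3.23 and 3.01 in eMZB_WT, and 1.18, 1.67 and 1.69 in TrB_KO, against 1.79, 2.21 and 2.34 in TrB_WT. The groups do not overlap in either cell type, and the log2 difference was -0.50 ± 0.12 in eMZB (adjusted p = 0.187) and -0.31 ± 0.12 in TrB (adjusted p = 0.398). For Slc16a1, whose per-library values are given above, it was 0.56 ± 0.18 in eMZB (adjusted p = 0.502). Slc25a11 and Slc46a3 followed with -0.21 (adjusted p = 0.622) and 0.35 (adjusted p = 0.694). The levels of Ly6c2, in both cell types, and of Flt3, in eMZB, also differed between the genotypes, as given above. Of 6 marginal zone B cell markers 2 were called higher with LSD1 loss in TrB and 0 lower. They are Cr2 (0.55, adjusted p = 0.0469) and Cd36 (0.59, adjusted p = 0.039). The part of all these markers in the carrier values was not tested.

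In TrB the smallest p belonged to Slc25a46. It had 5.68, 5.87 and 5.78 scaled FPKM in eMZB_KO, against 6.11, 6.15 and 6.42 in eMZB_WT, and 6.02, 5.86 and 7.76 in TrB_KO, against 4.71, 4.73 and 4.41 in TrB_WT. The groups do not overlap in TrB, with a log2 difference of 0.42 ± 0.10 there (adjusted p = 0.139) and -0.09 ± 0.10 in eMZB (adjusted p = 0.9999). The interaction for Slc25a46 was -0.51 ± 0.14 (adjusted p = 0.524). Slc22a21 followed with -0.95 (adjusted p = 0.325), resting largely on TrB_KO replicate 3. The purine nucleobase carrier Slc43a3 had 0.42 (adjusted p = 0.343), Slc25a15 0.26 (adjusted p = 0.371) and the bicarbonate importer Slc4a7 0.29 (adjusted p = 0.384).

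**Figure D5:**
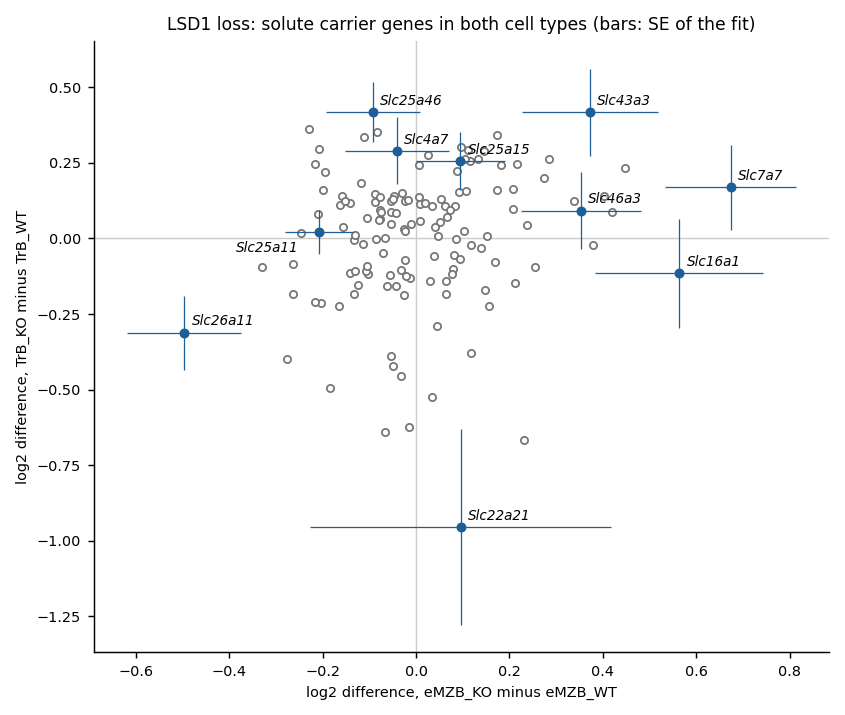
Log2 difference of each of the 139 members with LSD1 loss in eMZB (x axis, eMZB_KO minus eMZB_WT) and in TrB (y axis, TrB_KO minus TrB_WT); the 5 of smallest p in either cell type are named and carry the SE of the fit. None passed the adjusted threshold, and Slc7a7 at 0.67 in eMZB and Slc22a21 at -0.95 in TrB are the farthest from 0.

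Carriers that the naming pattern leaves out were also called in both directions. Of 48 such genes 35 were listed. In the knockout 6 were higher and 3 lower in eMZB_KO than in TrB_KO, beside 14.2% and 13.2% of all listed genes. In wild type 7 were higher and 4 lower in eMZB_WT than in TrB_WT, beside 14.6% and 12.7%. Mpc1, a subunit of the mitochondrial pyruvate carrier, rose with log2 differences of 0.67 in the knockout and 0.51 in wild type. Slc35b2, which brings the sulfate donor PAPS into the Golgi, rose with 0.48 in the knockout and 0.76 in wild type, and Slc35b4 with 0.53 in the knockout and 0.71 in wild type. The GDP-fucose carrier Slc35c1 fell with -0.65 in the knockout and -0.42 in wild type, the mitochondrial sideroflexin Sfxn3 with -0.93 in the knockout and -0.76 in wild type and Spns3 with -0.46 in the knockout and -0.56 in wild type. Mfsd10 rose with 0.56 in the knockout and 0.73 in wild type, and Mfsd1 was higher in wild type by 0.77 (adjusted p = 0.000592). Of 24 partners and regulators of carriers 19 were listed, with 6 higher and 3 lower in each genotype, beside the same shares of listed genes. None of either list was called with LSD1 loss by limma, beside 0.406% of listed genes in eMZB and 0.498% in TrB.

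The partners that changed include subunits of the sodium pump, which powers sodium-coupled uptake. Atp1b1 had 1.01, 1.66 and 1.41 scaled FPKM in eMZB_KO, against 11.7, 13.2 and 13.4 in TrB_KO, and 1.38, 1.51 and 1.04 in eMZB_WT, against 18.1, 17.4 and 9.75 in TrB_WT. Atp1b1, a beta subunit, fell in both genotypes (log2 difference -2.55 ± 0.19 in the knockout (adjusted p = 1.8e-06) and -2.76 ± 0.19 in wild type (adjusted p = 9.27e-07)), whereas the other beta subunit, Atp1b3, rose with 0.32 in the knockout and 0.65 in wild type. Txnip, which restrains glucose uptake by removing glucose carriers from the membrane, fell with -1.06 (adjusted p = 9.28e-06) in the knockout and -1.16 (adjusted p = 4.08e-06) in wild type. Ldha, which makes the lactate that Slc16a1 carries, rose with 1.07 (adjusted p = 3.27e-05) in the knockout and 1.0 (adjusted p = 5.51e-05) in wild type. Emb, a chaperone of monocarboxylate carriers, was higher in the knockout by 1.28 (adjusted p = 0.00493), with 0.77 (adjusted p = 0.0614) in wild type. Tfeb, a factor of the lysosomal gene program, fell with -0.72 in the knockout and -0.61 in wild type.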

How the data were processed

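Messenger RNA was measured in 12 libraries, 3 per group. Per the labels' protocols, RNA of 2000 sorted cells was amplified by SMART-Seq v4, and Nextera XT, a kit without strand information, turned it into libraries. STAR and mm10 appear in the submitters' processing notes, and further steps are not stated. The authors deposited FPKM for 9842 genes with Entrez IDs, of which 9833 matched a symbol in the RefSeq gene table. That table gave positions (GRCm38) and promoter windows.

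FPKM were divided by median-of-ratios factors (0.613 to 2.14). limma (3.58.1, R 4.3.3) was fitted with lmFit and eBayes with trend to log2(scaled FPKM + 1) of all listed genes, with 4 group means and 8 residual degrees of freedom; the fit was tested on simulated data. Whole reads were recovered from the FPKM of all 9842 genes within 0.02 reads. They gave depth and a voom alternative, and they bound counting error alone, since PCR copies cannot be told from separate molecules. Alternatives were FPKM as deposited, upper-quartile scaling, a pseudocount of 0.1, genes with a mean of at least 2, the groups compared alone, the replicate number as a block, voom, leaving out each library, and leaving out both wild-type libraries of low Kdm1a.

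Replicate numbers carry no stated meaning in the labels. Deviations from the group means of libraries of the same number correlated at 0.161, 0.106 and 0.292 between TrB_KO and eMZB_KO, all over 0.1. A fit with the replicate number as a block was therefore added as an alternative. The calls and p-values printed are from the fit without the block, which ignores such a pairing, except where the block is named. With the block 45 members were called between eMZB_KO and TrB_KO, against 46 without it. Slc16a7 and Slc25a4 lost their calls there, and Slc29a1 was gained. No other pair of groups compared passed, so the block also covers groups whose correlations were not all over 0.1.

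The members and gene lists were chosen with earlier results of these data known. Genes named by rule were, per contrast, up to 12 called members per direction, the 5 of smallest p for LSD1 loss, the 3 highest of each class, and the extremes of level. Other called members, and those low in 1 library, are named after their values were seen. Some genes are counted but their values are not reported here. Python 3.11.15, numpy 2.4.6, pandas 2.3.3 and matplotlib 3.10.9 served for the rest.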

Additional observations from a re-analysis of the deposited data

How the results depend on the processing

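Between the cell types, counts of called members moved by over 1.5 times under 2 alternatives. On FPKM as deposited 8 were called in the knockout, against 46 on scaled FPKM, and 28 in wild type, against 44. Without both wild-type libraries of low Kdm1a 28 were called in wild type, with fewer samples. Leaving out 1 library gave 38 to 51 calls in the knockout and 30 to 56 in wild type, and 0 for LSD1 loss in either cell type and for the interaction. For LSD1 loss in eMZB voom called 1 member, Slc26a11 (-0.68, adjusted p = 0.0478), against 0; the cause was not tested.

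Differences of the opposite sign were found only on FPKM as deposited and in wild type, at 0.042 for Slc12a4, 0.20 for Slc1a5, 0.15 for Slc25a15, 0.053 for Slc25a20, 0.38 for Slc25a22, 0.21 for Slc25a37 and 0.022 for Slc25a53 among members named by rule. The deposited scale moves the median of all genes by 0.67 there, by 0.23 in the knockout, by 0.52 for LSD1 loss in TrB and by -0.46 in the interaction. Of 48 calls of named members, 19 were kept on FPKM as deposited, 45 without both wild-type libraries of low Kdm1a, and 48 with upper-quartile scaling, a pseudocount of 0.1, the groups compared alone, the replicate block or voom. These 48 are the calls of smallest p. The block gave 45 calls in the knockout and 47 in wild type, and changed no call among these 48. Over all calls, the block lost 2 in the knockout, Slc16a7 and Slc25a4, and 0 in wild type, and gained 1 and 3. voom lost 0 in the knockout and 6 in wild type, Slc16a7, Slc22a21, Slc25a33, Slc29a1, Slc38a7 and Slc4a10 (adjusted p 0.0544 to 0.101), and gained 17 and 2. Among the gained were Slc25a45, Slc38a7, Slc43a1 and Slc5a6 in the knockout (adjusted p 0.0151 to 0.0421), described above as called in wild type. Slc16a1 was gained in wild type. A pseudocount of 0.1 lost 3 in the knockout, Slc16a7, Slc25a24 and Slc7a3, and 4 in wild type, Slc19a1, Slc22a21, Slc25a13 and Slc4a10, and gained 0. The groups compared alone lost 4 in the knockout, Slc16a7, Slc25a26, Slc25a4 and Slc7a3, and 0 in wild type, and upper-quartile scaling lost Slc25a4 in the knockout and Slc19a1 in wild type.

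Limits are few libraries per group, low levels (39 members average under 2 scaled FPKM), overlapping genes without strand, and 1 library, TrB_KO replicate 3, whose make-up differs from the rest.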
